A study of Mus musculus with 15 samples.

Results

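Interferon-stimulated genes are genes whose transcription rises when a cell senses interferon, and 10 of them were followed here through the thalamus of amyloid-bearing and amyloid-free mice with and without Lilrb4a. They are Ifit1, Ifit3, Ifi27l2a, Irf7, Oasl2, Isg15, Bst2, Usp18, Rtp4 and Ifitm3, chosen by name as known targets of the pathway, and all 10 were found by symbol among the 29659 genes in each library. Bulk RNA-seq of polyadenylated RNA was available for 15 thalamus libraries from 4.5-month-old mice. The 5EL mice (n = 5) were 5xFAD/APOE4+/+/Lilrb4a+/+, the 5ELKO mice (n = 4) were 5xFAD/APOE4+/+/Lilrb4a-/-, the EL mice (n = 3) were APOE4+/+ with Lilrb4a+/+, and the ELKO mice (n = 3) were APOE4+/+/Lilrb4a-/-. By their labels all 4 groups therefore carried human APOE4 on both alleles, and no group had another APOE allele. 5xFAD mice express mutant human transgenes from a neuronal promoter and deposit amyloid early, and Lilrb4a, an inhibitory receptor of microglia and other myeloid cells, was absent from every cell of the knockout mice rather than from microglia alone. The study compared 5EL with 5ELKO and was concerned with the JAK-STAT and NF-κB signalling under Lilrb4a, which is where the interferon targets enter.

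Type I interferons bind the receptor made of Ifnar1 and Ifnar2, the kinases Jak1 and Tyk2 signal onward, and a complex that holds Stat2 and Irf9 binds the interferon-stimulated response element in target promoters. Type II interferon uses Ifngr1 and Ifngr2 and acts mainly through the gamma-activated site. Irf7 amplifies the response, Isg15 is a ubiquitin-like protein that is attached to other proteins, Usp18 removes Isg15 and damps the receptor, Ifit1, Ifit3 and Oasl2 act on viral RNA or its sensing, and Bst2 and Ifitm3 act at membranes. In the brain a fraction of microglia near amyloid is known to express such genes, but bulk tissue pools all cells.

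Promoters of 4 genes are printed because the letters of that element stand upstream of the start, and a match of letters is a description, not evidence of binding. RefSeq promoter windows of 300 bases on GRCm38.p6, running from 250 bases before the start to 50 after it, were matched for 7 of the 10 genes (Ifi27l2a, Usp18 and Rtp4 had none). The letters GAAANNGAAA, the core of the response element, were searched on both strands and occur in 5 of the 7 windows, against 3.44% of all 32851 windows. The stretch from 160 to 31 bases before the start is shown for each gene, 5′ to 3′ on its coding strand, with GAAANNGAAA or its reverse complement in capitals, where overlapping matches run together.
Ifit1: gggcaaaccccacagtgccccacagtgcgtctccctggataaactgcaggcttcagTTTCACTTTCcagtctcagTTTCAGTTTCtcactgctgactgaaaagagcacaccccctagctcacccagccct
Ifit3: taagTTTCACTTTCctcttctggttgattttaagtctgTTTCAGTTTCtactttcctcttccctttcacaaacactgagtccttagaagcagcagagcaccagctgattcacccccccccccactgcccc
Isg15: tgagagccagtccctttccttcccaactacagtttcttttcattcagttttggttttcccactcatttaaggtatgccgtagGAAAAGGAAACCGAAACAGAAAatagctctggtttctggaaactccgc
Bst2: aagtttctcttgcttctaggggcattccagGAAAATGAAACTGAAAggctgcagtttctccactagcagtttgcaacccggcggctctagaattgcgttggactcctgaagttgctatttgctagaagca
The Ifit1 stretch is chr19:34640729-34640858 and the Ifit3 stretch is chr19:34583369-34583498, both on the plus strand, each with 2 separate matches on the opposite strand. The Isg15 stretch is chr4:156200849-156200978 on the minus strand, with 3 overlapping matches, and the Bst2 stretch is chr8:71537503-71537632 on the minus strand, with 2. In Ifitm3 the 2 matches lie after the start, and no match was found in the windows of Irf7 and Oasl2, which says only that these letters are not in these 300 bases. Among the other type I targets listed for comparison, 24 of the 49 genes with a window held the letters. The gamma-activated site, TTCNNNGAA, was found for Bst2 and Ifitm3 (2 of 7 genes) and in 8.30% of all windows.

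The deposited values are on a log2 scale, without read counts, so the depth behind a gene's value is unknown, and the transform was not given in the sources used here. Lilrb4a, the deleted gene, was at 2.33 in each of the 7 libraries lacking it and between 2.34 and 2.66 in the 8 others, a narrow gap on this scale. Choroid plexus markers averaged 8.30 in 5EL replicate 1 and 8.70 in ELKO replicate 2 against 6.12 to 6.69 in the 13 others. The library labelled ELKO replicate 1 had mouse Apoe at 10.9, against 5.92 to 6.37 in the 14 others, although its label gives human APOE4 on both alleles. These 3 libraries stood apart, and results that turn on them are given without them as well. The markers of thalamic neurons (10 genes) averaged 12.3 to 12.6 in every library. The study's quality records give each 5EL and 5ELKO library a sample number of its own, while the sources do not say that each EL and ELKO library is a different mouse, so there the p-values may measure technical spread.

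Of the 10 genes, 9 passed the filter on low values, a linear level of at least 10 in 3 libraries or more. The exception was Ifi27l2a, a mitochondrial membrane protein that is among the strongest interferon targets in many tissues (chr12:103442167-103443680, minus strand). It stayed between 2.53 and 2.69 in all 15 libraries. Its 2 highest values, 2.69 and 2.68, were in 5ELKO replicates 4 and 1, and a near-copy, Ifi27l2b, makes its reads uncertain.

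Levels can be compared between genes only per length. If the linear form of the deposited value is proportional to read pairs, and exons are those of GENCODE M21, Ifitm3 was the most abundant at 7.44 (log2 of the linear value per kb of exon), before Ifit3 at 6.07 and Bst2 at 5.94. Isg15 followed at 5.19, Ifit1 at 4.35 and Rtp4 at 4.02. Of the genes past the filter, Oasl2 (3.41), Irf7 (3.38) and Usp18 (3.01) were lowest. Ifi27l2a was at 3.69 but cannot be ranked. Its linear value averaged 5.98, near the 5.01 to 5.03 of the deleted Lilrb4a in the knockout libraries, before division by a short exon length.

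**Figure D1:**
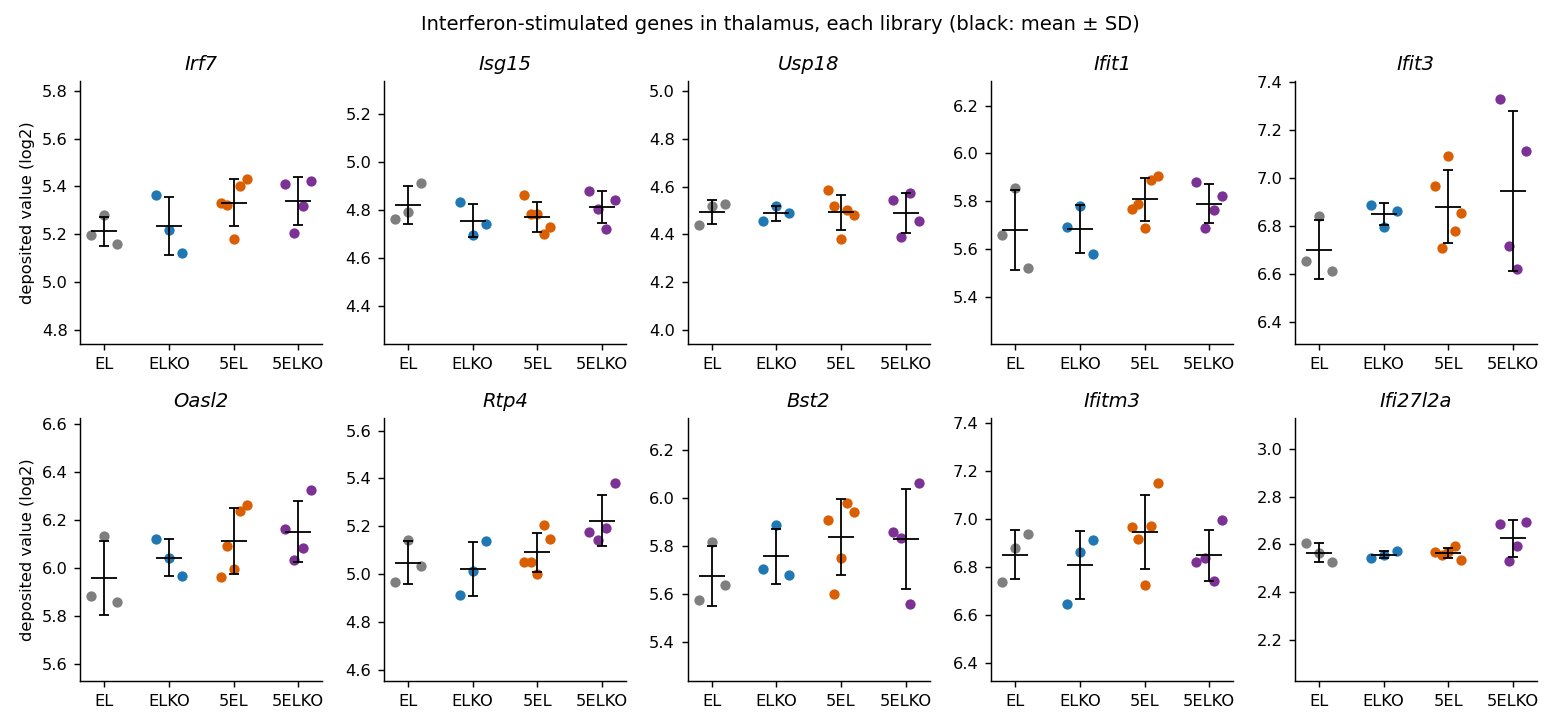
Deposited log2 value (vertical axis, the same span of 1.1 log2 in every panel) of each of the 10 genes in each library, by group on the horizontal axis, where a dot is a library and black bars are the mean ± SD. For Rtp4 the 4 5ELKO dots lie above the 3 ELKO dots, while every other gene overlaps between any 2 groups.

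The transcription factor of the set, Irf7 (chr7:141262706-141266481, minus strand), which drives the second wave of interferon production, had log2 values of 5.33, 5.32, 5.18, 5.40 and 5.43 in 5EL and of 5.41, 5.21, 5.32 and 5.42 in 5ELKO. In EL it was at 5.20, 5.28 and 5.16, and in ELKO at 5.36, 5.22 and 5.12. Of the 5 5EL libraries 4 lay above all EL libraries, but 5EL replicate 3 lay among them, and ELKO replicate 1 lay above 5 of the 9 5xFAD libraries. Over 3776 exonic bases, 45 are shared with Phrf1 on the other strand, whose reads cannot be told apart because strand was not used in counting.

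The ubiquitin-like modifier and its protease differed least between groups. Isg15 (chr4:156199424-156200818, minus strand) averaged 4.77 ± 0.062 in 5EL (SD, n = 5), 4.81 ± 0.068 in 5ELKO (n = 4), 4.82 ± 0.080 in EL (n = 3) and 4.76 ± 0.071 in ELKO (n = 3), and its highest library of the 15 was EL replicate 3, at 4.91. Usp18 (chr6:121245906-121270917, plus strand) had group means within 0.0068 of each other, all rounding to 4.49. Of its exonic bases, 124 of 2790 are shared with the antisense gene Gm44148. For both genes the groups did not differ beyond the spread of their libraries. That spread was 4.0 (Isg15) and 4.55 (Usp18) times smaller than counting error would give if the linear values were read pairs. The deposited scale may narrow the group differences of these low genes as well, which was not tested.

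Ifit1 and Ifit3 encode proteins that recognise foreign RNA and lie in the same region of chromosome 19. Ifit1 (chr19:34640871-34650009, plus strand) had log2 values of 5.77, 5.79, 5.69, 5.89 and 5.91 in 5EL, 5.88, 5.69, 5.76 and 5.82 in 5ELKO, 5.66, 5.85 and 5.52 in EL, and 5.69, 5.78 and 5.58 in ELKO. Ifit3 (chr19:34583531-34588731, plus strand) had 6.96, 6.71, 7.09, 6.78 and 6.85 in 5EL, 7.33, 6.72, 6.62 and 7.11 in 5ELKO, 6.65, 6.84 and 6.61 in EL, and 6.89, 6.80 and 6.86 in ELKO. Ifit3 was the most variable of the genes, and its 3 highest libraries all carried 5xFAD (5ELKO replicates 1 and 4 and 5EL replicate 3), while 5ELKO replicates 2 and 3 lay within the range of EL. Reads of Ifit3 may be split with its near-copy Ifit3b, so its values are uncertain.

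Oasl2, a relative of the oligoadenylate synthases (chr5:114896936-114912234, plus strand), had log2 values of 5.96, 6.09, 5.996, 6.24 and 6.27 in 5EL, 6.16, 6.03, 6.08 and 6.33 in 5ELKO, 5.89, 6.14 and 5.86 in EL, and 6.12, 6.04 and 5.97 in ELKO. Rtp4, a receptor chaperone that interferon induces (chr16:23520291-23614222, plus strand), had 5.05, 5.05, 5.00, 5.20 and 5.15 in 5EL, 5.18, 5.14, 5.19 and 5.38 in 5ELKO, 4.97, 5.14 and 5.03 in EL, and 4.91, 5.01 and 5.14 in ELKO. Rtp4 was the single gene of the set in which 2 groups did not overlap, 5ELKO over ELKO, with the gap between the lowest 5ELKO and the highest ELKO library under 0.01. Its exons share 296 of 2131 bases with Gm45338, a gene on the same strand.

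The membrane proteins Bst2, which tethers budding virions (chr8:71534255-71537456, minus strand), and Ifitm3, which blocks viral fusion (chr7:141009586-141010770, minus strand), completed the set. Bst2 averaged 5.84 ± 0.16 in 5EL (SD, n = 5), 5.83 ± 0.21 in 5ELKO (n = 4), 5.68 ± 0.13 in EL (n = 3) and 5.76 ± 0.11 in ELKO (n = 3), and both its highest and its lowest library were 5ELKO libraries (6.06 and 5.56). Ifitm3 averaged 6.95 ± 0.15 in 5EL, 6.85 ± 0.11 in 5ELKO, 6.85 ± 0.10 in EL and 6.81 ± 0.14 in ELKO. Ifitm3 has close family members, among them Ifitm1 and Ifitm2, with which reads may be shared.

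The question of the first comparison was whether amyloid goes with higher interferon targets, pooled over both Lilrb4a genotypes (9 5xFAD libraries against 6 without). All 9 genes had a mean above that of the amyloid-free groups, with a median difference of 0.12 on the log2 scale, against 49.7% of all 15804 genes tested above 0 and a median over all genes of about 0. No gene reached an adjusted p under 0.05 in limma (0 of 9, and 0% of all genes). At an unadjusted p under 0.05 in limma there were 2 of 9, against 6.57% of all genes. These were Rtp4, higher by 0.12 (95% interval 0.016 to 0.23, limma adjusted p = 0.693), and Irf7, higher by 0.11 (0.0044 to 0.22, limma adjusted p = 0.693). The values of Ifit3 (0.14), Oasl2 (0.13), Ifit1 (0.12), Bst2 (0.12) and Ifitm3 (0.068) had intervals that reach 0, and Isg15 and Usp18 were at 0.0031 and 7.8e-05. On the deposited scale the largest of the 9 differences is a 1.10-fold change, and the highest upper limit of their intervals is 1.27-fold. These are not folds of read counts, since on this scale even the deleted Lilrb4a lay close to the intact libraries.

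Both values depended on the fit and on single libraries. With the replicate number as a block, 0 of 9 genes were at an unadjusted p under 0.05 in limma and the median was 0.054. Rtp4 was then at 0.068 (limma adjusted p = 0.588) and Irf7 at 0.071 (limma adjusted p = 0.590). No EL or ELKO library is numbered 4 or 5, so 5EL replicates 4 and 5 and 5ELKO replicate 4 add nothing to these blocked values. Averaged over the 9 genes, those libraries ranked 4, 3 and 1 of the 15, so the lower values cannot be read as an adjustment for a batch. Without the 3 libraries that stood apart, which leaves 1 ELKO library whose spread is taken from the other groups, Rtp4 was higher by 0.069 (limma adjusted p = 0.547) and Irf7 by 0.17 (limma adjusted p = 0.221), and 3 genes were at an unadjusted p under 0.05. Without 5ELKO replicate 4 or without EL replicate 1 there were 0, and without 5EL replicate 3, 5ELKO replicate 2 or EL replicate 2 there were 4. Leaving out 1 of 5EL replicates 2, 4 and 5, 5ELKO replicate 1, EL replicate 3 and ELKO replicates 1 and 3 gave 1.

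Within each Lilrb4a genotype the differences had wider intervals. In 5EL against EL, 7 of 9 genes were above 0 (50.2% of all genes), with a median of 0.12, and 0 of 9 reached an adjusted p under 0.05 (0% of all genes) or an unadjusted p under 0.05 (7.7% of all genes) in limma. Ifit3 (0.18), Bst2 (0.16), Oasl2 (0.15), Ifit1 (0.13) and Irf7 (0.12) had the largest values, and the smallest exact permutation p among the 10 genes was 0.107, for Irf7 (two-sided, 5 against 3 libraries, adjusted p in limma = 0.637). Other markers differed in the same libraries in 5EL against EL: 9 of 10 thalamic neuron markers were below 0 (median -0.23, 5 at an unadjusted p under 0.05), and the 3 erythroid markers tested had a median of -1.20 (2 at an unadjusted p under 0.05), with EL replicates 3 and 2 at 1.70 and 0.67 over the mean of the 15 libraries. Their part in the result was not tested. In 5ELKO against ELKO all 9 genes were above 0 (49.7% of all genes), with a median of 0.095. Of these, Ifit3, Bst2, Ifitm3 and Usp18 fell below 0 in some alternative fits. In the main fit 0 reached an adjusted p under 0.05 in limma (0% of all genes) and 1 of 9 an unadjusted one (2.37% of all genes).

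That gene was Rtp4, higher by 0.20 in 5ELKO than in ELKO (95% interval 0.048 to 0.36), with an adjusted p of 0.999 in limma. All 4 5ELKO libraries lay above all 3 ELKO libraries, and the exact permutation p of 0.0286 is the smallest that 4 against 3 libraries allow. Groups did not overlap for 3.40% of all genes tested in this comparison. Without ELKO replicate 1, the library with high mouse Apoe and the lowest Rtp4 of the 15, the difference was 0.15 (limma adjusted p = 0.793), and without the 3 libraries that stood apart it was 0.085 (limma adjusted p = 0.727), against ELKO replicate 3 alone, which is assumed to vary like the other groups.

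**Figure D2:**
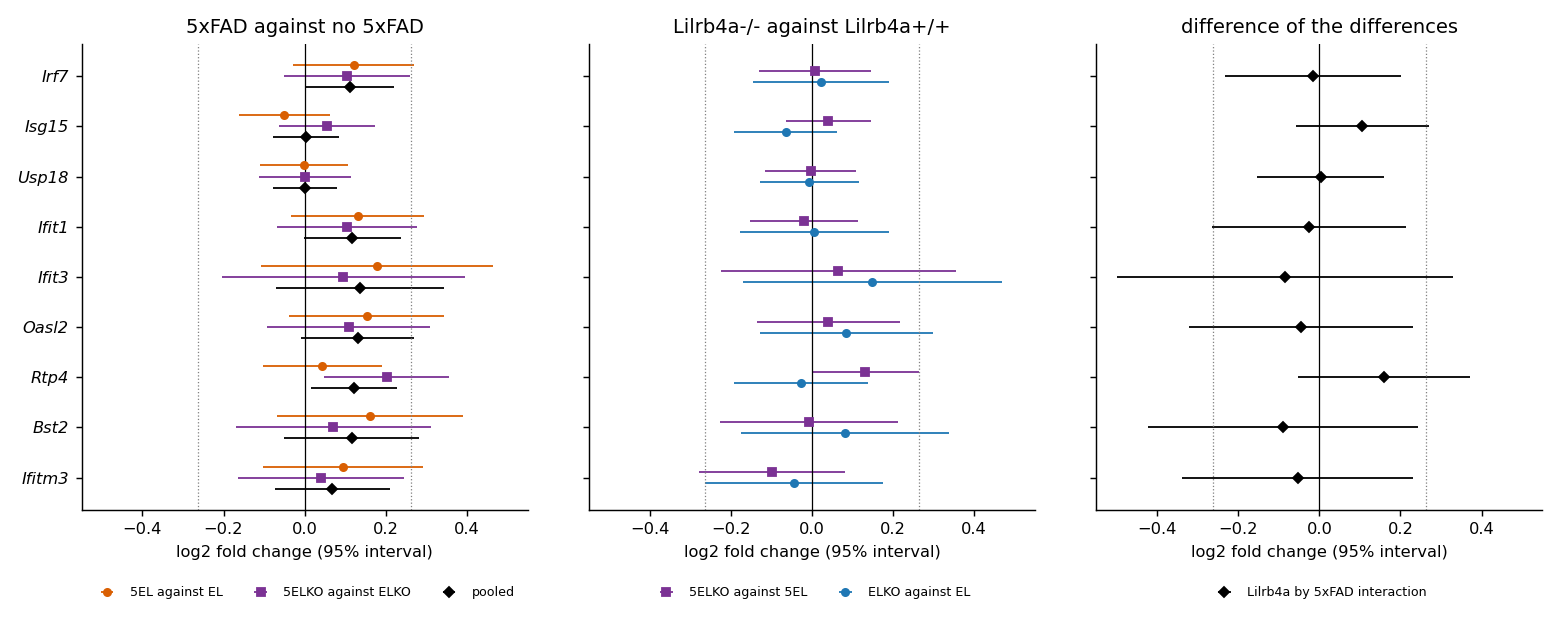
Difference between groups (log2 fold change, horizontal axis) of the 9 genes past the filter (vertical axis), with 95% limma intervals, for the amyloid comparisons on the left, the Lilrb4a comparisons in the middle and the difference between them on the right. No point lies beyond the dotted lines at a 1.2-fold change, a threshold that the study set for its own fold changes and not for differences of the deposited values.

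The comparison the study was built on, 5ELKO against 5EL, asks whether interferon targets differ when Lilrb4a is absent in amyloid-bearing mice. In limma 0 of 9 genes had an adjusted p under 0.05, while 3 of the 15743 genes tested did (0.0191%), and 0 of 9 had an unadjusted p under 0.05 (2.49% of all genes). With robust estimation, without a variance trend, or without 5EL replicate 4, 5EL replicate 5 or 5ELKO replicate 2, 1 of 9 did, Rtp4. The 3 genes became 1 with no filter, 0 with all 4 groups in one fit, and 0 without any one of 5EL replicates 3, 4 and 5 and 5ELKO replicates 1 and 4. The median difference was 0.0069, with 5 genes above 0 and 4 below. Rtp4 was at 0.13 (95% interval -0.00032 to 0.26, limma adjusted p = 0.999), with 1 of 4 5ELKO libraries above all 5EL libraries and an exact permutation p of 0.0873 (two-sided, 4 against 5 libraries, where the smallest possible is 0.00794). Ifitm3 was the lowest, at -0.098 (-0.28 to 0.082). Ifit3 was at 0.065 (-0.23 to 0.36), Oasl2 at 0.040, Isg15 at 0.041, Irf7 at 0.0069, Usp18 at -0.0035, Bst2 at -0.0077 and Ifit1 at -0.019. Over the 9 genes the intervals ran from a 0.825-fold to a 1.28-fold change on the deposited scale, and the standard errors from 0.048 to 0.13, so the smallest detectable difference varied from gene to gene.

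Ifi27l2a, fitted with no filter, was at 0.060 in this comparison (95% interval -0.020 to 0.14, limma adjusted p = 0.945). The 3 genes past the threshold were Alb, Bhmt and Serpina3k, liver-enriched genes, and 9 of the 11 hepatocyte markers tested were higher in 5ELKO at an unadjusted p under 0.05. The summed linear level of these markers was 1352 to 2275 in 5ELKO and 1190.4 to 14185 in 5EL, where the high end was 5EL replicate 1 with Ttr, a gene that choroid plexus makes as well, at a log2 value of 13.7. Whether they bear on the interferon targets was not tested.

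Without amyloid, ELKO and EL also gave 0 of 9 genes at an adjusted p under 0.05 (0% of all genes) and 0 of 9 at an unadjusted p under 0.05 (2.35% of all genes) in limma. The values ran from -0.065 for Isg15 to 0.15 for Ifit3, with a median of 0.0059 and 5 of 9 above 0. With 3 libraries a group an unpaired exact permutation test cannot go below 0.1, and its smallest value was 0.2, for Ifit3. These tests took the libraries as unpaired, although EL and ELKO libraries of the same number deviated together (r = 0.45, 0.33 and 0.74). With the replicate number as a block, 0 of 9 genes were at an unadjusted p under 0.05 in limma as well. The test of whether the amyloid difference itself differed between Lilrb4a genotypes likewise gave 0 of 9 at an adjusted p under 0.05 (0% of all genes) and 0 of 9 at an unadjusted p under 0.05 (2.73% of all genes) in limma. The difference of differences was highest for Rtp4, at 0.16 (95% interval -0.054 to 0.37), and for Isg15, at 0.11 (-0.058 to 0.27), and lowest for Bst2, at -0.090 (-0.42 to 0.24).

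The other genes of the pathway were taken list by list, by role. Of 18 interferon ligands 5 were among the genes in the libraries (Ifna2, Ifnab, Ifnk, Ifnz and Ifng), each at -1.90 or lower in every library, and none passed the filter. The receptors were well above it: Ifnar1, which pairs with Ifnar2, lay between 9.51 and 9.64 in all 15 libraries and Ifnar2 between 7.70 and 7.95. Of 5 receptors tested, pooled 5xFAD gave 1 at an unadjusted p under 0.05, Ifngr2, a subunit of the type II receptor, at -0.14 (95% interval -0.26 to -0.023, limma adjusted p = 0.693), while Ifngr1 was at 0.019, Ifnar1 at 0.010 and Ifnar2 at -0.046.

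Of 7 signalling genes 2 were at an unadjusted p under 0.05 in pooled 5xFAD in limma, both higher, Stat3 at 0.13 and Irf9, a DNA-binding partner of Stat2, at 0.12 (limma adjusted p = 0.693 for both). Stat2 was at 0.034, and the kinases Jak1 and Tyk2 were at -0.026 and -0.076. In 5ELKO against 5EL none of the 7 was at an unadjusted p under 0.05, with Stat2 at 0.11, Irf9 at 0.11, Jak1 at 0.0021 and Tyk2 at -0.0030.

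Of 8 interferon regulatory factors and cofactors 2 were higher in pooled 5xFAD at an unadjusted p under 0.05, Irf8, a factor that microglia need, at 0.28 (95% interval 0.10 to 0.45) and Irf2bp2 at 0.14 (limma adjusted p = 0.693 for both). Among 17 sensors of nucleic acid the smallest p belonged to Ddx58, which encodes the RNA sensor RIG-I, higher by 0.12 (limma adjusted p = 0.693). Of 8 inhibitors, Ptpn6, the phosphatase SHP-1, was higher by 0.22 and Socs1 was at -0.070 (limma adjusted p = 0.693 for both). In 5 genes of ISG15 conjugation the smallest p was that of Ube2l6, the conjugating enzyme, at 0.094 (limma adjusted p = 0.693).

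In limma 6.57% of all genes were at an unadjusted p under 0.05 in pooled 5xFAD, also the share for the shorter lists above. The larger list of other type I targets (63 genes, 60 in the libraries and 44 tested) had 6 such genes, all 6 higher, and 0 at an adjusted p under 0.05. The smallest p was that of Trim30d, at 0.15 (95% interval 0.074 to 0.23, limma adjusted p = 0.693). The median of the 44 was 0.038, with 34 above 0, against 0.12 and 9 of 9 for the named genes. Of 22 type II targets tested 6 were higher and 1 was lower at an unadjusted p under 0.05 in limma. The median of the 22 was 0.016, with 12 above 0 and 10 below. Among them Tap2, a peptide transporter of antigen presentation, had the smallest p, at 0.18 (0.064 to 0.30, limma adjusted p = 0.693). In 5ELKO against 5EL, 1 of the 44 type I targets was at an unadjusted p under 0.05, Ifitm1 at -0.13 (limma adjusted p = 0.999), and 0 of the 22 type II targets. Over all genes the share there was 2.49%, near which the 1 of 44 lies.

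**Figure D3:**
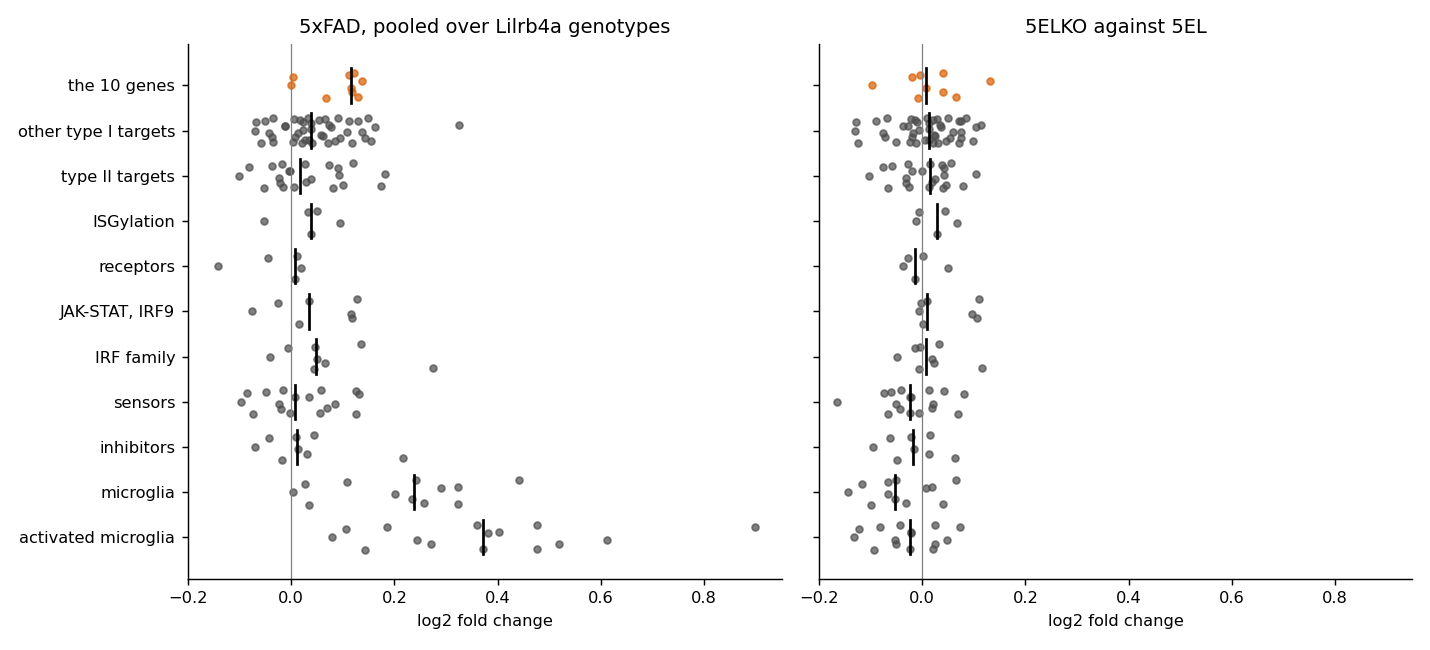
Log2 fold change (horizontal axis, one scale for both panels) of each gene tested in each list (vertical axis), with the 10 named genes in orange (9 tested) and the median of a list as a black bar. In pooled 5xFAD on the left the named genes have a median of 0.12 and activated-microglia markers one of 0.37, and in 5ELKO against 5EL on the right the medians lie near 0.

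Markers of microglia lay above 0 in the same comparison. In pooled 5xFAD all 12 pan-microglial markers were above 0, with a median of 0.24 and 8 at an unadjusted p under 0.05, and all 15 markers of activated microglia were above 0, with a median of 0.37 and 14 at an unadjusted p under 0.05 (0 at an adjusted p under 0.05 in limma in both lists). Summed over the 12 markers the linear level was 6862 to 7498 in EL, 6667 to 7529 in ELKO, 7386 to 9369 in 5EL and 6854 to 10106 in 5ELKO, and no marker was under 10 in every library. In bulk tissue more cells of a type and more RNA per cell cannot be told apart, and the part of microglia in the interferon target values was not tested. Of 16 markers of infiltrating and border leukocytes, 13 were under 10 on the linear scale in every library, among them the T-cell, NK-cell, neutrophil and B-cell genes Cd3e, Nkg7, S100a8 and Ms4a1. The 3 others passed the filter: Trbc2, a T-cell receptor gene (4.79 to 5.16), Mrc1 (5.57 to 6.32) and Cd163 (5.15 to 5.50). In pooled 5xFAD 0 of these 3 were at an unadjusted p under 0.05 in limma. In 5ELKO against 5EL 2 were, both lower, against 2.49% of all genes (smallest limma adjusted p = 0.999).

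The libraries did not follow their labels evenly. Averaged over the 9 genes and set against the mean of the 15 libraries, 5ELKO replicate 4 was highest at 0.16, followed by 5ELKO replicate 1 at 0.12 and 5EL replicates 5, 4 and 1 at 0.099, 0.072 and 0.043. The 4 other 5xFAD libraries, 5EL replicates 2 and 3 and 5ELKO replicates 2 and 3, lay between -0.050 and -0.027, within the range of the amyloid-free libraries (-0.13 to 0.026). On activated-microglia markers the same 5 libraries were highest, at 0.25 to 0.37, and the 4 others lay between -0.18 and 0.059, against -0.27 to -0.12 in the amyloid-free libraries. Cst7, an activated-microglia marker, was at 5.58 to 6.87 in 5ELKO, 5.68 to 6.80 in 5EL, 5.31 to 5.38 in EL and 5.30 to 5.73 in ELKO.

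**Figure D4:**
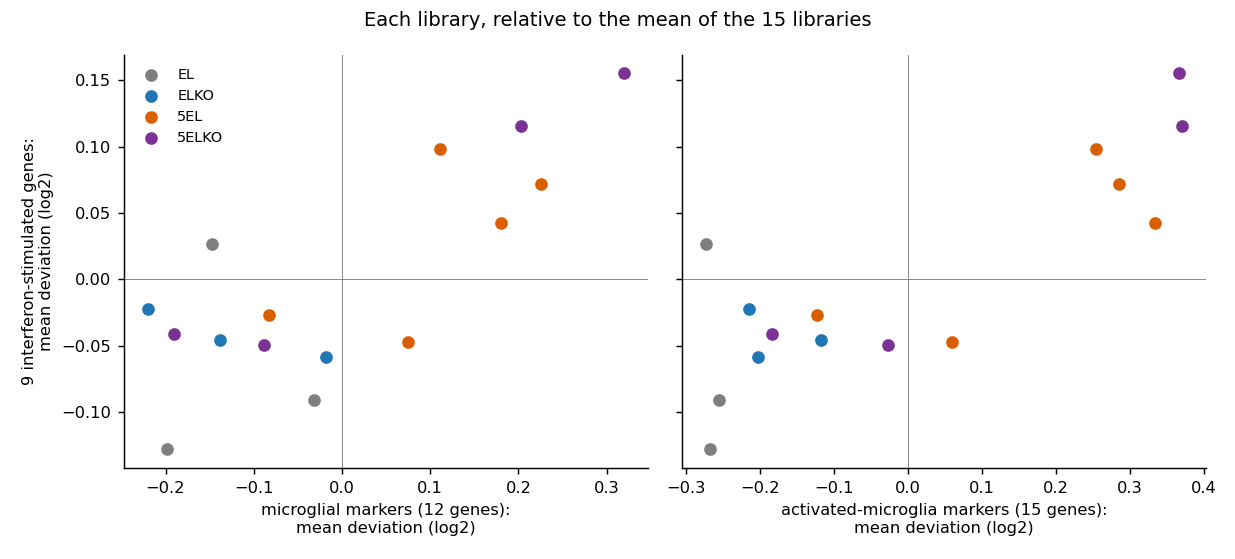
Mean deviation of the 9 interferon-stimulated genes (vertical axis, log2) against that of 12 microglial markers (left) and 15 activated-microglia markers (right), both relative to the mean of the 15 libraries, where a dot is a library coloured by group. The 5 libraries at the upper right are 3 of 5EL and 2 of 5ELKO, and the 4 other 5xFAD libraries sit among or near the EL and ELKO libraries.

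Markers of other cell types varied with the genes as well. With each group's mean removed, the mean of the 9 genes followed activated-microglia markers (r = 0.78, rho = 0.75), microglial markers (0.70, 0.69) and astrocyte markers (0.74, 0.82), and endothelial markers were at 0.52 in both (with r = 0.30 once the 2 farthest libraries were left out). For the 7 other marker lists r lay between -0.044 and 0.35, and rho between 0.025 and 0.63. Both were highest for the 3 erythroid markers, whose rho was above that of the endothelial markers. These values are a description over 15 libraries with no test. In pooled 5xFAD the 9 astrocyte markers had a median of 0.032, with 6 above 0 and 3 below. In limma 1 of them was at an unadjusted p under 0.05 (6.57% of all genes) and 0 at an adjusted one. Their highest value was 1.08, for Gfap, which averaged 10.2 in EL, 10.7 in ELKO and 11.5 in 5EL and in 5ELKO.

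Within groups the genes varied together in part. Over the 15 libraries, with each group's mean removed, Pearson's r between 2 of the 9 genes had a median of 0.28 over 36 pairs and was above 0 in 29. It was over 0.5 in 9 of the 36, against 11.7% of the pairs among the first 4000 genes tested, and the mean r over all pairs of genes tested was 0.00015. The closest were Irf7 and Oasl2 (r = 0.81, Spearman's rho = 0.77), Ifit1 and Oasl2 (0.80, 0.86), Ifit1 and Irf7 (0.76, 0.75) and Rtp4 and Ifitm3 (0.74, 0.86). Isg15 ran the other way from Ifit1 (r = -0.33), Rtp4 (r = -0.28) and Oasl2 (r = -0.21). Points in these correlations share their library, they are given as a description, and the low genes are compressed. The within-group SD of Usp18 was 0.067 and that of Isg15 0.069. These are 4.55 and 4.0 times smaller than counting error alone would give if the linear values were read pairs. For Rtp4 and Irf7 the SD was 2.55 and 2.36 times smaller than that error, while that of Ifit3, at 0.20, was larger.

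Of the 15795 other genes tested, 4 of the 5 whose within-group deviations were most like the mean of the 9 were Plek (r = 0.90, rho = 0.90), Spp1 (0.90, 0.86), Msn (0.89, 0.92) and Runx1 (0.88, 0.89), over 15 libraries and with no test. With the 2 libraries farthest from the median left out (5ELKO replicate 4 and EL replicate 2), r was 0.93, 0.87, 0.88 and 0.87 in the same order. None of the 5 is on a list of the interferon pathway, and 2 of the 20 most alike are, Ddx58 and Ptpn6, where such genes make up 0.734% of the genes compared. Plek, Spp1 and Runx1 are expressed by myeloid cells, Spp1 being on the list of activated-microglia markers, and Msn links membranes to actin.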

How the data were processed

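The libraries were grouped by their labels, and the members and gene lists were chosen with earlier results of these data known. Per the labels and the study's methods, the authors used Trimmomatic 0.39 for trimming, HISAT2 2.2.1 for alignment (GRCm38) and featureCounts 2.0.3 for read pairs per gene name, without strand. DESeq2 1.38.3 is named in the submitters' processing notes. The authors deposited log2 values (-2.27 to 18.98) for 29659 genes, and neither the transform nor the annotation release is given in the sources used here. A further 5ELKO library was not analysed here.

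From these values limma 3.58.1 in R 4.3.3 (lmFit, eBayes with a trend, two-sided, Benjamini-Hochberg) was run on genes past a linear level of 10 in 3 libraries or more, over all 15 libraries (15804 genes), or over the 9 5xFAD libraries alone for 5ELKO against 5EL, there in 4 or more (15743 genes). Single values were compared by exact permutation of libraries. The script was tested on simulated data. All 10 members and Lilrb4a are named, the main receptors and signalling genes whatever their values, the gene with the smallest p of each other list, and the 5 genes most like the members, except that some items are not reported here. Irf2bp2, Ptpn6, Socs1, Alb, Bhmt, Serpina3k, Cst7, Gfap, the leukocyte markers and the genes past the fifth for likeness were named after their values were seen. Deviations from the group means correlated between EL and ELKO libraries of the same number (r = 0.45, 0.33 and 0.74 over 3 pairs). Libraries of different numbers were not compared, so whether the numbers pair libraries was not tested. The sources do not say what the numbers share. Same-numbered 5EL and EL libraries had r = 0.054, 0.23 and 0.19. Same-numbered 5EL and 5ELKO libraries, and 5ELKO and ELKO libraries, had values on both sides of 0. The alternatives were the filter, the variance trend, robust estimation, recentring, Xist level as a covariate, the replicate block, the groups in the fit, and leaving out libraries. Coordinates are those of GENCODE M21 on GRCm38. Python 3.11.15 with scipy 1.17.1 and matplotlib 3.10.9 was used.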

Additional observations from a re-analysis of the deposited data

How the results depend on the processing

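No member reached an adjusted p under 0.05 in limma in any of the 1170 alternative values computed for single genes over 6 comparisons. The smallest adjusted p was 0.221 (Irf7 in pooled 5xFAD, without the 3 libraries that stood apart, which leaves ELKO with 1). The median difference of the members in pooled 5xFAD stayed above 0, between 0.094 and 0.15 with 1 library left out. With the replicate block it was 0.054, in 5EL against EL 0.057 and in 5ELKO against ELKO 0.065. The block called no member at an adjusted p under 0.05, but at an unadjusted p under 0.05 it took the members in pooled 5xFAD from 2 to 0 and in 5ELKO against 5EL from 0 to 1 (Rtp4 at 0.15, limma adjusted p = 0.9997). All genes at an adjusted p under 0.05 there went from 3 to 1, and with 1 library left out they ran from 0 to 4. Whether the numbers pair libraries was not tested. No EL or ELKO library is numbered 4 or 5, so the 5xFAD libraries so numbered add nothing to the blocked value in pooled 5xFAD. Over all genes, 31 reached an adjusted p under 0.05 in 5EL against EL without EL replicate 1, against 1 with no filter and 0 otherwise, and none was a member. The deposited values hold no counts, so what depth limits cannot be given.

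Uncalled differences changed sign in 98 of the 1170 values, and the cause was not tested. In 5ELKO against ELKO 9 values changed sign. There Ifit3 fell from 0.095 to as low as -0.033 and Bst2 from 0.071 to -0.0078. Ifitm3 fell to -0.065 and Usp18 to -0.034. In 5EL against EL 6 values changed sign, with Rtp4 as low as -0.018 and Usp18 as high as 0.026. In pooled 5xFAD, Usp18 went to -0.0028 with libraries recentred to one median, to -0.018 with Xist level as a covariate and to -0.012 without the libraries that stood apart, where Isg15 was at -4.01e-06. In 5ELKO against 5EL, the replicate block, to which 5EL replicate 5 adds nothing since no 5ELKO library has its number, gave Ifit1 0.00516 and Bst2 0.019. Bst2 was at 0.062 there with Xist level as a covariate. Xist lay between 0.17 and 0.19 in every library but 5ELKO replicate 3, at 0.31, all far under the filter on low values. That covariate therefore mainly marks 5ELKO replicate 3 and cannot serve as an adjustment for sex. The paper states that, unless specified, only males were used where its figures do not separate the sexes. Its RNA-seq figures show 5EL and 5ELKO, not EL and ELKO. Without 5ELKO replicate 3, Bst2 was at 0.083. Without 5EL replicate 1, the one library of these groups that stood apart, Bst2 was at 0.011 and Usp18 at 0.019. The difference of differences of Bst2 was 0.0059 without the 3 libraries. With 1 library left out, values in pooled 5xFAD ran from -0.012 to 0.026 for Isg15 and from -0.014 to 0.017 for Usp18. In 5ELKO against 5EL they ran from -0.050 to 0.014 for Ifit1, -0.064 to 0.17 for Ifit3, -0.032 to 0.051 for Irf7, -0.018 to 0.080 for Oasl2, -0.086 to 0.083 for Bst2 and -0.031 to 0.030 for Usp18. The difference of differences of Bst2 ran from -0.17 to 0.000382.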
